A study of Mus musculus with 4 samples.

Results

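The contractile genes of myoepithelium and vessel wall were followed in sublingual glands, which are mucous salivary glands, of female Nkx2.3-/- mice. The 10 members were taken by gene symbol from the deposited count table of 24411 symbols: Acta2, Myh11, Cnn1, Mylk, Tagln, Actg2, Oxtr, Myl9, Tpm2 and Des. All 10 have a row in the table. There are 2 libraries at 32 weeks (replicates 3 and 4) and 2 at 8 weeks (replicates 1 and 2), all from mice homozygous for the Nkx2-3 knockout on the C57BL/6J background. Every library carries the knockout, no wild-type library was analysed here, and the labels do not say whether each library came from its own animal, so a p-value reflects the spread among these libraries, which may be technical.

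Myoepithelial cells are epithelial cells that wrap acini and intercalated ducts and squeeze secretion into the duct lumen. They share most of their contractile machinery with the smooth muscle of vessel walls, in which smooth muscle myosin pulls on actin filaments after its regulatory light chain has been phosphorylated. Many of these genes are driven by serum response factor and its myocardin-family partners, which bind CArG boxes, short stretches rich in A and T between a pair of C and a pair of G. In RNA from a whole gland, fewer cells of a type and less RNA per cell cannot be told apart, and a transcript of myoepithelium cannot be told apart from the same transcript of a vessel wall.

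Promoters are shown for Acta2 and Myl9, the members in whose promoter a CArG box or a form of it with 1 C or G in its core was found, and for Tpm2, the member with the clearest separation of the ages below. They run from 250 bases before to 50 after the RefSeq start site, 5′ to 3′ along the gene's strand, on build GRCm38.p6 (the counts were made on mm9), and the capitals mark the CArG-type matches.
Acta2 (chr19:34255324-34255623, minus strand): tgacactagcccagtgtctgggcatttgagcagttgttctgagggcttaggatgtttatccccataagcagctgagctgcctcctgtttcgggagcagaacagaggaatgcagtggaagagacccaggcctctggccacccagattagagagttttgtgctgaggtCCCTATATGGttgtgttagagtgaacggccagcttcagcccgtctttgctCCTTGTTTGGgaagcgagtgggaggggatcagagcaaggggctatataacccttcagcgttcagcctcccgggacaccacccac
Myl9 (chr2:156775214-156775513, plus strand): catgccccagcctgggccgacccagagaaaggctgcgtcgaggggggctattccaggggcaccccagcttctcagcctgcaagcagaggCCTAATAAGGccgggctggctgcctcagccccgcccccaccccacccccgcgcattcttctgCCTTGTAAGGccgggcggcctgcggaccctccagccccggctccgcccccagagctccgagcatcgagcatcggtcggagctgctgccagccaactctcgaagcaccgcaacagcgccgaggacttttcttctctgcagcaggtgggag
Tpm2 (chr4:43523505-43523804, minus strand): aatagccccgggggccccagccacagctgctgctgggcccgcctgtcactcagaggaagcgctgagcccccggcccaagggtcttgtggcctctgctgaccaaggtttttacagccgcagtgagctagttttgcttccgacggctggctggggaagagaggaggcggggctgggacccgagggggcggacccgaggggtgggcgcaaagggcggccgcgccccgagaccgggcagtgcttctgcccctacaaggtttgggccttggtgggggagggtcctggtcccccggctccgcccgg

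RefSeq promoters were matched for 7 members (Acta2, Cnn1, Mylk, Oxtr, Myl9, Tpm2 and Des); Tagln, Myh11 and Actg2 are named only. The CArG box was searched on both strands. It was found in the promoter of Myl9, at positions -161 to -152 from the start site, and in 1.63% of all 32851 promoters of the same length. The form with 1 C or G in the core was found in 8.5% of all promoters and in those of Myl9 (-99 to -90) and Acta2 (-84 to -75 and -34 to -25). Cnn1, Mylk, Oxtr, Tpm2 and Des held neither form in this window. The Tpm2 promoter was rich in G and C (70.3%), against 54.7% for Acta2 and 68.3% for Myl9. A match describes the letters and is no measurement of binding.

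Depth was 16484772 and 16111122 counts at 32 weeks and 12925869 and 14265485 counts at 8 weeks. Nkx2-3, the deleted homeobox gene, had 21 and 29 counts at 32 weeks and 31 and 28 counts at 8 weeks; the labels do not say which part of it was deleted. The gland was recognisable by Muc19, its gel-forming mucin, with 20281 and 16721 CPM in the 32-week libraries, against 12021 and 13869 CPM in the 8-week libraries. Smgc, a secreted protein encoded at the same locus, so that reads of both may be split uncertainly, had 41973 and 125863 CPM in the 32-week libraries, against 142077 and 73277 CPM in the 8-week libraries. CPM, the unit of level used throughout, are counts scaled to library size by TMM, a factor that aligns the bulk of genes between libraries. The 10 contractile genes together took 0.0703% and 0.102% of the counts at 32 weeks and 0.0701% and 0.0745% at 8 weeks, so the share was highest in 32-week replicate 4 and close to equal in the other 3 libraries. Libraries of one age were not always the most alike. Across tested genes, which are not independent, Pearson's r of log2(CPM + 0.5) came to 0.983 within 32 weeks and 0.962 within 8 weeks, whereas 32-week replicate 4 and 8-week replicate 1 reached 0.987. Fold changes are also given below with single libraries left out.

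No contractile gene passed the test of 32 against 8 weeks. Age was tested with edgeR's quasi-likelihood test over the 12810 genes that passed the low-count filter, of which 0% were called at an adjusted p of 0.05 (1.36% had an unadjusted p under 0.05, 174 genes, among them 1 member, Tpm2). Of the other tools, DESeq2 called 3 genes and limma-voom 0, and neither called a member. Of the members 8 passed the filter and Des and Oxtr did not. All 8 had a positive fold change at 32 weeks, where 48.3% of all tested genes did, with a median log2 fold change of 0.29 against -0.011 over all tested genes. The 95% interval of the fold change included 0 for 7 of the 8 and lay above 0 for Tpm2 alone, and the edgeR adjusted p was 0.999 for each of the 8. Both 32-week libraries stood above both 8-week libraries in 5 members (Acta2, Myh11, Tagln, Myl9 and Tpm2), where 14.4% of all tested genes did so. The same was seen for these 5 with RLE size factors (14.5% of all tested genes). When CPM were scaled by total counts alone, 1 member (Tpm2) stood apart in this way, against 5.43% of all tested genes.

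**Figure D1:**
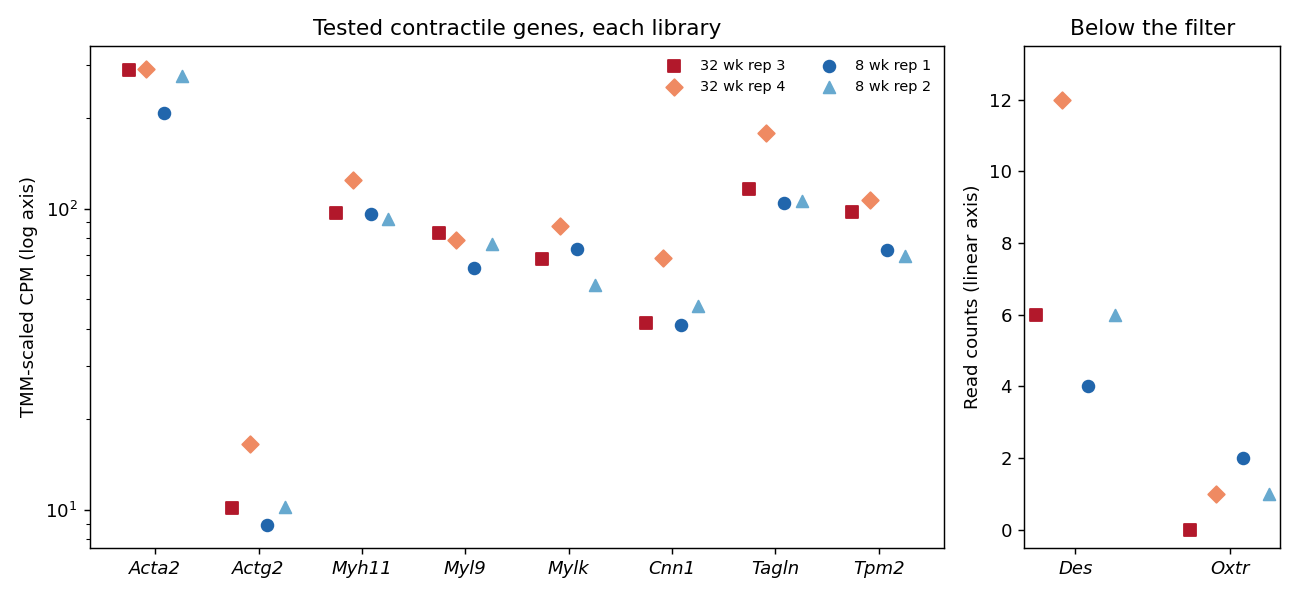
TMM-scaled CPM of the 8 tested contractile genes (left panel, log axis) and read counts of Des and Oxtr (right panel, linear axis), with 1 point for each library. In 7 of the 8 tested genes the highest point is 32-week replicate 4, and in Myl9 it is 32-week replicate 3.

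The actins come first. Acta2, the smooth muscle alpha actin that is the usual marker of myoepithelium, had 288 and 291 CPM in the 32-week libraries and 207 and 275 CPM in the 8-week libraries. The 32-week libraries were alike, the 8-week libraries differed by 1.33-fold, and 8-week replicate 2 lay just below the 32-week values. The log2 fold change of Acta2 was 0.26 (SE 0.24, 95% interval -0.30 to 0.83, edgeR adjusted p = 0.999). It came to 0.078 with 8-week replicate 1 left out and to 0.49 with 8-week replicate 2 left out. With total counts alone Acta2 stood at 252 and 311 CPM in the 32-week libraries, against 217 and 279 CPM in the 8-week libraries, and the ages overlapped. Acta2 lies on chromosome 19, 34315580 to 34329826, minus strand; these and the positions below are on NCBIM37, which is mm9.

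Actg2, the smooth muscle gamma actin best known from the gut wall (chromosome 6, 83462899 to 83486259, minus strand), was far less abundant than Acta2, also per kilobase of transcript. Actg2 had 10.2 and 16.5 CPM in the 32-week libraries, against 8.93 and 10.2 CPM in the 8-week libraries (147 and 284 counts, against 121 and 148). The value of 32-week replicate 4 stood alone, and the other 3 libraries lay close together. For Actg2 the log2 fold change was 0.48 (SE 0.28, 95% interval -0.16 to 1.13, edgeR adjusted p = 0.999), and leaving out 32-week replicate 4 gave 0.089, while leaving out replicate 3 of that age gave 0.80. The coding sequences of Acta2 and Actg2 are 84.2% identical. Of the 1732 windows of 50 bases in the Acta2 transcript 7 occur in a protein-coding transcript of another gene, all in Actg1. Of the 1284 in Actg2 none does, and noncoding transcripts were not searched. Actg1, a cytoplasmic actin, had 243 and 264 CPM in the 32-week libraries, against 209 and 460 CPM in the 8-week libraries, so its highest library was 8-week replicate 2, the 8-week library with the higher Acta2. The part of such shared reads in the Acta2 counts was not tested.

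The myosin genes encode the motor and its switch. Myh11, the smooth muscle myosin heavy chain (chromosome 16, 14194620 to 14291501, minus strand), had 96.7 and 125 CPM in the 32-week libraries, against 95.6 and 92.2 CPM in the 8-week libraries. Replicate 3 of 32 weeks lay closer to 8-week replicate 1 than the 8-week libraries lay to each other, so the ages were only narrowly apart. Of the 6583 windows of 50 bases in the Myh11 transcript 26 also occur in Myh9, a nonmuscle myosin heavy chain. The part of such shared reads in the Myh11 counts was not tested. The log2 fold change of Myh11 was 0.24 (SE 0.22, 95% interval -0.27 to 0.74, edgeR adjusted p = 0.999), and leaving out 32-week replicate 4 gave 0.046, while leaving out replicate 3 of that age gave 0.42. Myl9, the regulatory light chain of smooth muscle myosin (chromosome 2, 156601156 to 156607394, plus strand), had 83.0 and 78.5 CPM in the 32-week libraries, against 63.7 and 76.5 CPM in the 8-week libraries. Here 8-week replicate 1 was low and the other 3 libraries were alike. Myl9 had a log2 fold change of 0.20 (SE 0.20, 95% interval -0.27 to 0.68, edgeR adjusted p = 0.999), the smallest of the 8, and leaving out 8-week replicate 1 gave 0.080, while leaving out replicate 2 of that age gave 0.35. Mylk, the kinase that phosphorylates this light chain (chromosome 16, 34745296 to 35002520, plus strand), had 67.9 and 87.9 CPM in the 32-week libraries, against 73.4 and 55.9 CPM in the 8-week libraries. The ages overlapped, and the libraries of each age differed by about as much (1.29-fold at 32 weeks and 1.31-fold at 8 weeks). For Mylk the log2 fold change was 0.27 (SE 0.23, 95% interval -0.28 to 0.82, edgeR adjusted p = 0.999). Leaving out replicates 1 to 4 in turn gave 0.48, 0.092, 0.45 and 0.074.

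The proteins that bind the actin filament held the largest difference and the one whose sign turned with 1 library. Tpm2, a tropomyosin that winds along the filament, had 97.1 and 107 CPM in the 32-week libraries, against 73.1 and 69.7 CPM in the 8-week libraries. With TMM scaling both 32-week libraries lay above both 8-week libraries by more than the libraries of either age differed. The log2 fold change of Tpm2 was 0.52 (SE 0.20, 95% interval 0.059 to 0.97, unadjusted p = 0.0318, edgeR adjusted p = 0.999), and it ranged from 0.45 to 0.59 with 1 library left out. With total counts alone Tpm2 stood at 85.2 and 114 CPM in the 32-week libraries, against 76.7 and 70.7 CPM in the 8-week libraries, and the ages stayed apart. On that scaling its log2 fold change was 0.44, but its unadjusted edgeR p rose to 0.144. Tpm2 lies on chromosome 4, 43527583 to 43536637, minus strand.

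Tagln, also called SM22 and an actin-binding protein of the calponin family (chromosome 9, 45737711 to 45744141, minus strand), had 116 and 178 CPM in the 32-week libraries, against 105 and 106 CPM in the 8-week libraries. The 8-week libraries were alike, and 32-week replicate 4 was 1.53-fold above 32-week replicate 3. Tagln had a log2 fold change of 0.48 (SE 0.25, 95% interval -0.12 to 1.08, edgeR adjusted p = 0.999). With 32-week replicate 4 left out it came to 0.14, and with 32-week replicate 3 left out to 0.76. Tagln overlaps Pcsk7 on the opposite strand by 65 bases, and 16 of its 1537 windows of 50 bases also occur in Pcsk7, so that a small part of its reads is uncertain. Cnn1, calponin, which restrains the myosin motor on actin (chromosome 9, 21903725 to 21914074, plus strand), had 41.7 and 68.6 CPM in the 32-week libraries, against 41.2 and 47.4 CPM in the 8-week libraries. Only 32-week replicate 4 was high, and 32-week replicate 3 lay between the 8-week libraries. Cnn1 had a log2 fold change of 0.32 (SE 0.27, 95% interval -0.31 to 0.94, edgeR adjusted p = 0.999), and its sign turned without 32-week replicate 4 (-0.084), while without 32-week replicate 3 it was 0.64.

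**Figure D2:**
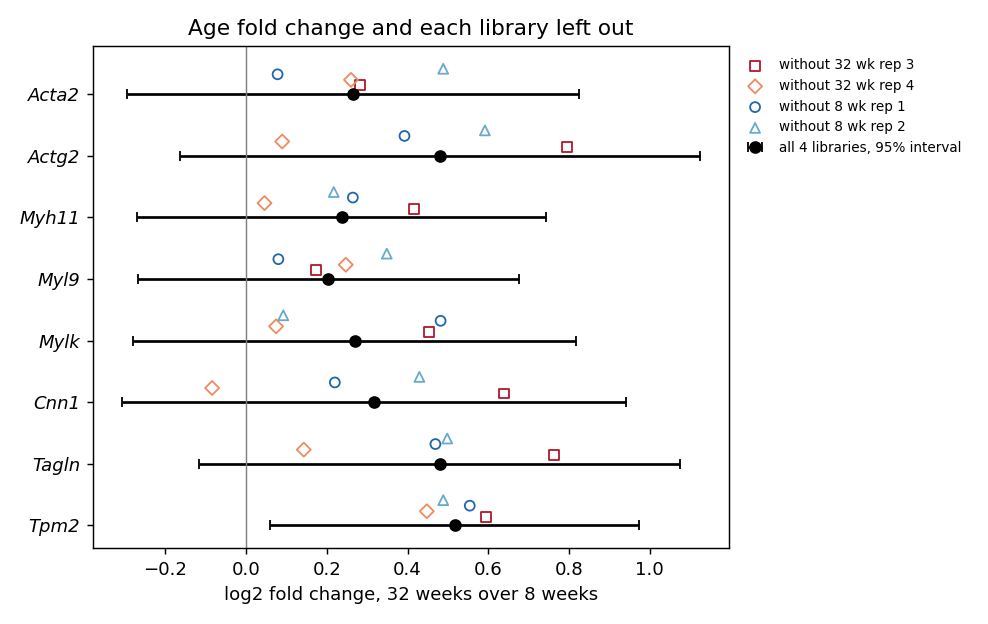
Log2 fold change of 32 over 8 weeks for the 8 tested contractile genes: filled points with 95% intervals come from all 4 libraries, and open symbols give the value with 1 library left out. The interval of Tpm2 alone lies above 0, and the diamond (without 32-week replicate 4) of Cnn1 lies below 0.

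Desmin and the oxytocin receptor were at the edge of detection. Des, the intermediate filament of muscle cells (chromosome 1, 75356904 to 75365154, plus strand), had 6 and 12 counts at 32 weeks and 4 and 6 counts at 8 weeks, or 0.415 and 0.698 CPM against 0.295 and 0.414 CPM. Both of the highest values were from 32 weeks, but the margin between 32-week replicate 3 and 8-week replicate 2 was the difference in scaling between libraries with 6 counts each. Oxtr, the receptor through which oxytocin contracts the myoepithelium of the mammary gland (chromosome 6, 112423678 to 112440884, minus strand), had 0 and 1 counts at 32 weeks and 2 and 1 counts at 8 weeks. A library with no count leaves room for up to 3 counts, or 0.174 to 0.221 CPM by library, from counting error alone. Oxtr was within this limit in every library, and no fold change is given. The Des gene overlaps a transcript on the opposite strand, Gm15179, by 368 bases.

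**Figure D3:**
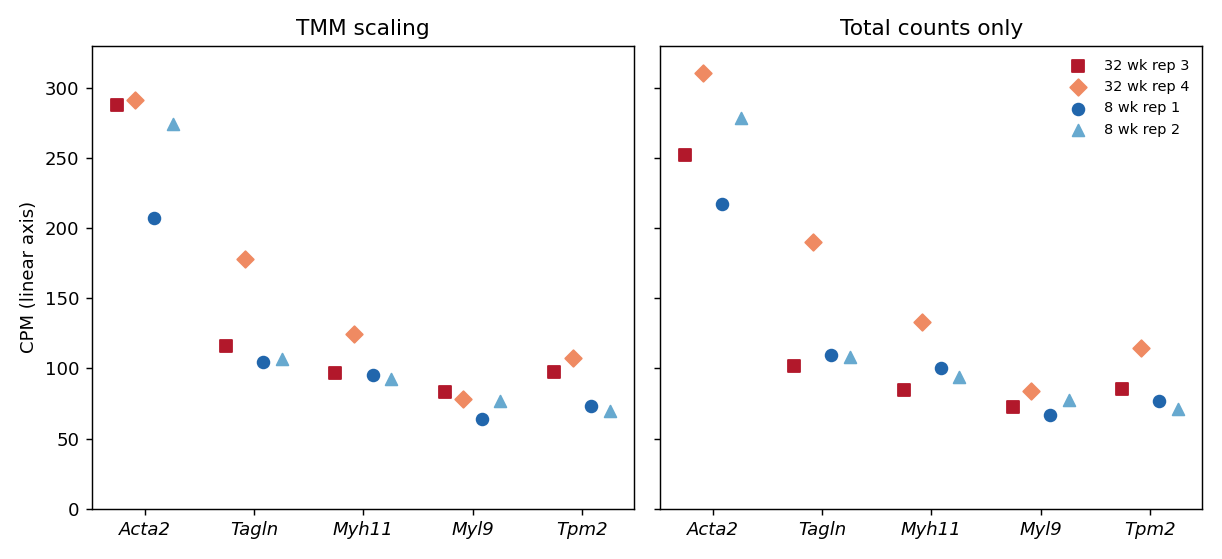
CPM of the 5 contractile genes in which both 32-week libraries exceeded both 8-week libraries under TMM scaling (left panel), and the same genes with CPM from total counts alone (right panel), on linear axes from 0 with 1 point for each library. Tpm2 keeps the ages apart in both panels, and in the right panel the ages overlap for Acta2, Tagln, Myh11 and Myl9.

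Levels were set side by side per kilobase of each gene's longest coding transcript in GENCODE vM1. On this scale Acta2 led with 162 and 163 CPM per kilobase at 32 weeks and 116 and 154 at 8 weeks. Tagln (66.0 to 112 over the 4 libraries) and Myl9 (56.5 to 73.5) came next and were not separated, each being the higher in 2 of the 4 libraries. Tpm2 (32.0 to 49.3 CPM per kilobase) lay below both of them in every library. Cnn1 (17.4 to 29.0) and Myh11 (13.9 to 18.8) followed, with overlapping ranges but Cnn1 the higher in 4 of 4 libraries. Mylk (7.14 to 11.2) and Actg2 (6.70 to 12.4) were not separated from each other. Des (0.0975 to 0.231) and Oxtr (0 to 0.0323) stood far below the rest. The places of Mylk, Tpm2 and Actg2 depend on the transcript used, since their coding transcripts run from 1466 to 7824, from 401 to 2175 and from 772 to 1333 bases and the counts do not tell them apart.

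Ratios to Acta2 within a library do not depend on scaling. In each of 7 members the wider of the gaps within an age exceeded the gap between the means of the ages. Tagln had 40.4% and 61.1% as many counts as Acta2 at 32 weeks and 50.5% and 38.7% at 8 weeks. Myh11 had 33.6% and 42.8% at 32 weeks and 46.2% and 33.6% at 8 weeks, and Mylk had 23.6% and 30.2% at 32 weeks and 35.4% and 20.3% at 8 weeks. In each of these genes the higher values came from 32-week replicate 4 and 8-week replicate 1. The same libraries held the higher ratios for Cnn1 (14.5% and 23.6% at 32 weeks, 19.9% and 17.3% at 8 weeks) and Actg2 (3.53% and 5.67% at 32 weeks, 4.31% and 3.72% at 8 weeks). In 8-week replicate 1 the CPM of Acta2 itself were the lowest of the libraries, as were those of Tagln, Cnn1 and Actg2. A high ratio in that library is therefore not a high level of these genes. Tpm2 had 33.8% and 36.8% at 32 weeks and 35.3% and 25.4% at 8 weeks, with 8-week replicate 2 alone low. The ratio of Myl9 stayed within a narrow range for its size, at 28.8% and 27.0% at 32 weeks and 30.7% and 27.9% at 8 weeks.

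**Figure D4:**
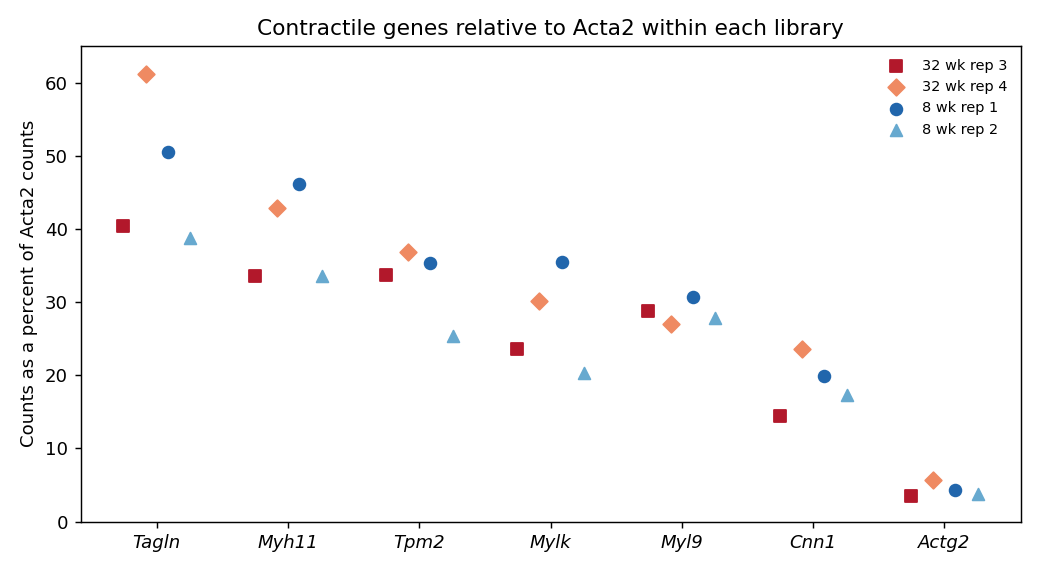
Counts of 7 contractile genes as a percent of the Acta2 counts of the same library, on a linear axis from 0 with 1 point for each library. For Tagln, Myh11, Mylk, Cnn1 and Actg2 the diamond (32-week replicate 4) and the circle (8-week replicate 1) are the highest points, and for Myl9 all 4 points lie between 27.0% and 30.7%. The CPM of Acta2 itself were lowest in 8-week replicate 1.

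Most members shared their highest library, while the full order of the libraries varied among them. Of the 8 tested members 7 were highest in 32-week replicate 4, where 20.6% of all tested genes were, and Myl9 in 32-week replicate 3 (19.8% of all tested genes), and the lowest library was 8-week replicate 1 for 5 (23.4% of all tested genes) and 8-week replicate 2 for 3 (35.3%). After subtraction of each gene's mean over the 4 libraries, the members' median log2(CPM + 0.5) was -0.060 and 0.32 in the 32-week libraries (replicates 3 and 4), against -0.23 and -0.13 in the 8-week ones (replicates 1 and 2).

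The rest of the contractile apparatus did not share the members' shift to the same extent in its median, and no difference between lists was tested. Of 23 further genes for filament, linker and regulatory proteins, 21 were tested. Of these 16 had a positive and 5 a negative fold change, where 48.3% of all tested genes had a positive one. None passed with edgeR or had an unadjusted p under 0.05, and the median was 0.11. The list was mixed: at 5 CPM or more its log2 fold changes ran from -0.48 to 0.41, against 0.20 to 0.52 for the 8 tested members. Part of the list thus matched the members in size. Myl6, the essential light chain, had 241 and 220 CPM in the 32-week libraries, against 196 and 186 CPM in the 8-week libraries, a log2 fold change of 0.27 (SE 0.21). Synm, an intermediate filament protein, had 17.7 and 30.9 CPM in the 32-week libraries, against 21.3 and 15.4 CPM in the 8-week libraries, again with 32-week replicate 4 the highest. Pdlim3, a protein of actin anchoring sites, was at the other end with 5.60 and 8.84 CPM in the 32-week libraries, against 8.93 and 11.3 CPM in the 8-week libraries, a log2 fold change of -0.48 (SE 0.29).

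The upstream regulators and receptors were measured beside them. Of 10 genes listed as serum response factor, its partners and regulators 7 were tested, with 5 positive and 2 negative fold changes and a median of 0.055. Srf, the serum response factor itself, had 8.36 and 7.68 CPM in the 32-week libraries, against 7.67 and 5.66 CPM in the 8-week libraries, and Mkl2, its myocardin-related partner, had 45.6 and 51.0 CPM in the 32-week libraries, against 48.0 and 61.0 CPM in the 8-week libraries. Myocd, myocardin itself, singled out after its values were seen, had 2 and 2 counts at 32 weeks and 0 and 0 counts at 8 weeks, within the limit given for a count of 0. Of 12 receptors that trigger contraction in muscle or myoepithelium 7 were tested, with 1 positive and 6 negative fold changes and a median of -0.18. Over all tested genes 48.3% of fold changes were positive. The receptors ran from -1.18 to 1.27, and only Chrm1 and Chrm3 averaged 5 CPM or more, so most of these values rest on few counts. Chrm1, a muscarinic acetylcholine receptor, had 21.8 and 28.6 CPM in the 32-week libraries, against 32.2 and 23.3 CPM in the 8-week libraries. Chrm3, the muscarinic receptor best known for driving saliva, had 12.3 and 11.9 CPM in the 32-week libraries, against 13.1 and 12.2 CPM in the 8-week libraries. Acinar cells carry muscarinic receptors too, so these counts cannot be assigned to contractile cells.

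Markers of the cells that can carry the contractile genes gave different orders of the libraries. The 9 myoepithelial and basal epithelial markers summed to 145 and 171 CPM in the 32-week libraries, against 140 and 162 CPM in the 8-week libraries, with 5 positive and 4 negative fold changes (median 0.039), and none of them was at 0. At 5 CPM or more their log2 fold changes ran from -0.19 for Lamb3, a laminin chain, to 0.34 for Col17a1, a collagen of hemidesmosomes. Krt14, a basal keratin, had 43.3 and 65.8 CPM in the 32-week libraries, against 48.3 and 50.3 CPM in the 8-week libraries, and was highest in 32-week replicate 4, as were 4 of the 9 markers (Krt5, Krt14, Krt17 and Col17a1). Of the others Trp63 and Cdh3 were highest in 8-week replicate 1, Mme and Lamb3 in 8-week replicate 2 and Itgb4 in 32-week replicate 3. The 14 vessel wall and pericyte markers summed to 43.7 and 29.1 CPM in the 32-week libraries, against 29.6 and 47.1 CPM in the 8-week libraries. The sums of 32-week replicate 4 and 8-week replicate 1 were both low and close to equal. Of these 12 were tested, with 5 positive and 7 negative fold changes (median -0.040), and none was at 0 in all 4 libraries. Rgs5, a pericyte marker, had 10.6 and 6.28 CPM in the 32-week libraries, against 6.42 and 10.01 CPM in the 8-week libraries, and Pdgfrb, a growth factor receptor of pericytes and fibroblasts, had a log2 fold change of -0.17 (SE 0.40). The part of either cell type in the members' levels was not tested.

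The 12 endothelial markers summed to 107 and 144 CPM in the 32-week libraries, against 86.3 and 111 CPM in the 8-week libraries, and all 11 tested had a positive fold change (median 0.21), between 0.19 for Pecam1 and 0.45 for Egfl7 at 5 CPM or more. Vwf, the clotting factor of endothelium, made up much of this sum, with 39.7 and 87.4 CPM in the 32-week libraries, against 39.6 and 55.6 CPM in the 8-week libraries. The 10 fibroblast markers summed to 430 and 351 CPM in the 32-week libraries, against 382 and 328 CPM in the 8-week libraries (median 0.22), led by Dcn, a matrix proteoglycan, at 219 and 204 CPM in the 32-week libraries, against 218 and 177 CPM in the 8-week libraries. Among them Fbn1, a microfibril protein, had a log2 fold change of 0.42 (SE 0.28) and Lum, a collagen-binding proteoglycan, one of -0.069 (SE 0.18). The highest fibroblast sum was that of 32-week replicate 3, which was not the highest for most contractile genes.

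Transcripts of striated muscle were few. The 19 skeletal and cardiac muscle genes summed to 8.09 and 11.6 CPM in the 32-week libraries, against 6.72 and 10.2 CPM in the 8-week libraries, 5 of them passed the low-count filter, and Myh1 had 0 counts in every library. Ckm, muscle creatine kinase, had 4 and 1 counts at 32 weeks and 3 and 5 counts at 8 weeks, and Tnnt3, a fast troponin, had 0 and 1 counts at 32 weeks and 3 and 2 counts at 8 weeks. Mylpf, a fast myosin light chain, had 18 and 17 counts at 32 weeks and 5 and 13 counts at 8 weeks, and Actc1, cardiac actin, had 1 and 5 counts at 32 weeks and 0 in each 8-week library. Acta1, skeletal muscle actin, had the highest CPM of the list, with 2.07 and 5.53 CPM in the 32-week libraries, against 1.92 and 3.45 CPM in the 8-week libraries, highest in the library that was highest in Acta2 and Actg2.

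Among 9 genes listed as nonmuscle actin and myosin, with the tropomyosins Tpm3 and Tpm4 among them, 6 fold changes were positive and 3 negative (median 0.056). Actb, cytoplasmic beta actin, had 1059 and 974 CPM in the 32-week libraries, against 917 and 961 CPM in the 8-week libraries. Myh14, a nonmuscle myosin heavy chain, had 14.9 and 13.9 CPM in the 32-week libraries, against 9.81 and 4.83 CPM in the 8-week libraries for a log2 fold change of 0.98 (SE 0.33) that missed the threshold (edgeR adjusted p = 0.999). Of the 123 genes in these lists outside the members, Myh14 was the only one called when a library was left out (edgeR, replicate 1 left out, adjusted p = 0.0284). In that fit 1 of 99 tested genes of these lists was called, where 2.15% of all tested genes were (285 of 13267), so the share was not above the background.

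**Figure D5:**
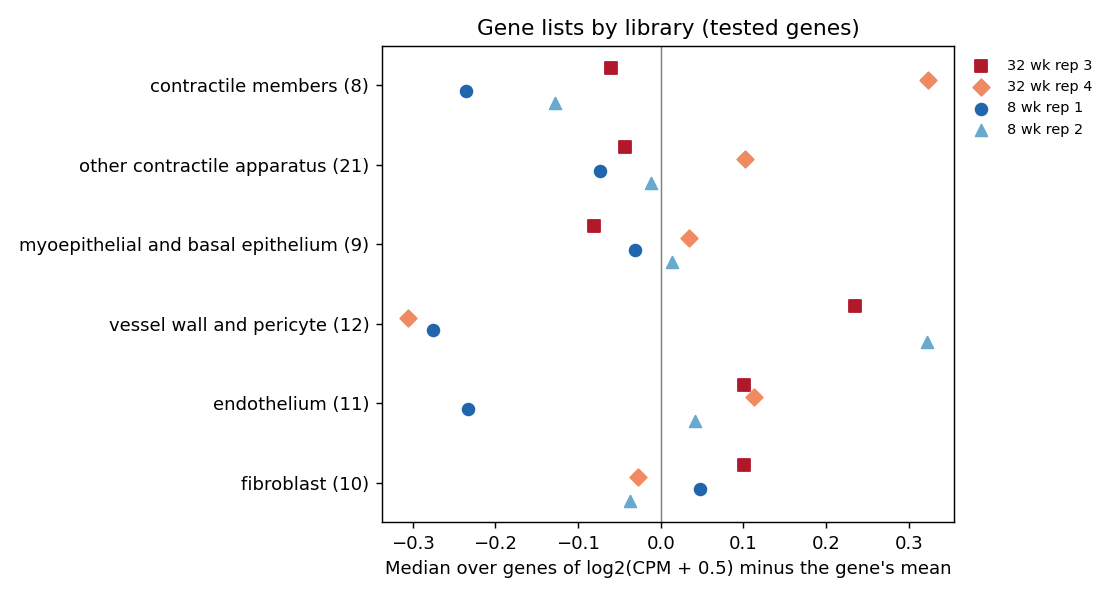
Median over the tested genes of each list (number in brackets) of log2(CPM + 0.5) minus the gene's own mean over the 4 libraries, with 1 point for each library. The contractile genes reach 0.32 in 32-week replicate 4, where the vessel wall and pericyte list stands at -0.31 and the myoepithelial and basal list at 0.034. The vessel wall and pericyte list is nearly as low in 8-week replicate 1 (-0.28).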

How the data were processed

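Per the labels' protocols, RNA came from frozen glands by Trizol extraction and the library kit was Illumina TruSeq. Reads were aligned by the authors with STAR against mm9, per the submitters' processing notes; how they counted, with which annotation and strand setting, and what became of reads with several matches, is not stated there. The authors deposited raw read counts for each gene symbol as whole numbers.

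Computed here in R 4.3.3: edgeR 4.0.16's quasi-likelihood test with TMM scaling, filterByExpr at its defaults, age as the only term and Benjamini-Hochberg adjustment over 12810 genes. CPM use the summed counts of these genes times the TMM factor. SE is the log2 fold change divided by the root of the F statistic. With 2 libraries against 2 the smallest exact permutation p is 0.333. Alternatives used limma 3.58.1, DESeq2 1.42.0, other scalings and filters, and each library left out. Positions, lengths and 50-base windows come from GENCODE vM1 on NCBIM37, identities from Biopython 1.88 alignments, and promoters from RefSeq. The windows were compared with protein-coding transcripts only. The scripts were tested on simulated data.

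The members and gene lists were chosen with earlier results of these data known. Besides the members, the rule named the most abundant gene of each list and, at 5 CPM or more, its highest and lowest fold change. A gene that this rule named is not reported here. Muscle genes (Acta1, Ckm, Tnnt3, Mylpf) and actin paralogs were named as checks.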

Additional observations from a re-analysis of the deposited data

How the results depend on the processing

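No contractile gene was called under any of the 13 alternatives. All 8 tested genes kept a positive fold change under each, except Cnn1, whose value ran from -0.084 without replicate 4 to 0.64 without replicate 3. The members' median log2 fold change ran from 0.12 without replicate 4 to 0.52 without replicate 3, and from 0.23 (total counts alone) to 0.30 under the other settings, of which the newer quasi-likelihood fit was chosen after seeing the data. Over all genes, 0 were called with edgeR; the count was 10 with total counts alone, 7 with no low-count filter, 3 with DESeq2 and 6 to 285 with 1 library left out, the most without replicate 1; the cause was not tested. Leaving out a library leaves its age with 1 library, assumed to vary like the other age. The older quasi-likelihood fit is the default of this edgeR version and gave the same values. No paired analysis was possible because the ages share no replicate number. Over all tested genes, the 95% interval extended a median of 0.61 (log2) from the estimate.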
